A study of Mus musculus with 38 samples.

Results

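Heat shock proteins and their DnaJ partners are the general protein-folding machinery of the cell, and 66 genes of these families were measured here in mouse cortical collecting duct (CCD), the kidney tubule segment in which vasopressin controls water reabsorption. The members were taken by name: gene symbols that begin with Hsp followed by a digit or the letter a, b, d, e or h, or with Dnaja, Dnajb or Dnajc, and whose mean level was 1 TPM (a relative transcript abundance corrected for transcript length) or more over 24 RNA-seq libraries. Of 91 such symbols, 66 passed that minimum, out of 55416 genes in the table. No difference between treatments or genotypes entered the choice. The member just above the minimum was the gene copy Dnajc19-ps, at a mean of 1.51 TPM. The symbols just below it were Hspa1l, at 0.726 TPM, and Hsp25-ps1, at 0.688 TPM.

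CCDs had been microdissected from mouse kidney for RNA-seq and for ATAC-seq, which measures open chromatin. In the infusion experiment, wild-type C57BL/6 mice received dDAVP (desmopressin, which activates the V2 receptor of vasopressin) or saline over 5 days. RNA-seq covered 4 libraries of each treatment and ATAC-seq 3 of each. The other RNA-seq table, of 24 libraries, held 4 units called WT and 4 called MT, each of 3 libraries, where MT carries β-catenin mutated at S552, a protein kinase A target site. The study asked what excess antidiuretic hormone without low blood sodium does to gene expression in this segment. Every one of the 24 libraries was labelled as C57BL/6 and dDAVP-treated at 5 days, whereas the name of their table said that no vasopressin was given. Only the titles separated WT from MT, so these groups rest on the titles. Titles did not say that a unit was 1 animal, or that the dDAVP RNA-seq libraries came from separate animals. The p-values below therefore measure the spread between these samples, which may in part be technical. The title of dDAVP RNA-seq library 4 gave the dDAVP number 3.

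Chaperones of the Hsp70 family bind and release unfolded stretches of protein in a cycle driven by ATP. J-domain proteins (the DNAJA, DNAJB and DNAJC families) bring substrates to Hsp70 and stimulate its ATPase, and Hsp110 proteins and other exchange factors reset it. Hsp90 acts later, on proteins close to their final fold such as kinases and steroid receptors, while small heat shock proteins hold unfolded proteins without using ATP. Separate sets of the same machinery work in the endoplasmic reticulum (ER), where membrane proteins such as the water channel aquaporin-2 are made, and in mitochondria. Heat shock factor 1 switches on the cytosolic set through heat shock elements in promoters, and the ER set is switched on through ER stress response elements.

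The promoter stretches below are shown because they carry the elements that name these responses in the members whose values are described afterwards. They come from RefSeq promoters of the build GRCm38.p6 (mm10), from 250 bases before to 50 bases after a start site, and are given 5′ to 3′ on the gene's strand. Of the 66 members, 51 had such a sequence. The 15 without one, Hspa8, Hsp90ab1, Hsp90aa1 and Hspa9 among them, could not be searched for elements. Capitals mark heat shock elements in the lines of Hspa1a, Hspa1b, Hspd1 and Hspe1, and ER stress response elements in the others.
Hspa1a: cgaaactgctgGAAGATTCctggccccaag
Hspa1b: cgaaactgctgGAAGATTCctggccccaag
Hspd1: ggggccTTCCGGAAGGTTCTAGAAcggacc
Hspe1: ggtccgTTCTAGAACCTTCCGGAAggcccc
Hspa5: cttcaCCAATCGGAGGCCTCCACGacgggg
Hsp90b1, distal: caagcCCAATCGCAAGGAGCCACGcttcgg
Hsp90b1, proximal: gagtgCGTGGTGAGGCACGATTGGtgagtt
Dnajc3: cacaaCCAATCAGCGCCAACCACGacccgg

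The Hspa1a stretch lay at chr17:34972242-34972271 and the Hspa1b stretch at chr17:34959324-34959353, both on the minus strand, between 115 and 86 bases before the start. Hspa1a and Hspa1b are neighbouring genes that encode almost the same inducible Hsp70, and their 300-base promoter windows differed at 4 bases. The stretches of Hspd1 and Hspe1, the mitochondrial chaperonin and its lid, were the same interval, chr1:55088053-55088082, read on opposite strands between these divergent genes. The stretch of Hspa5, which encodes the ER Hsp70 BiP, lay at chr2:34772020-34772049 on the plus strand. Those of Hsp90b1, the ER Hsp90, lay at chr10:86705632-86705661 and chr10:86705527-86705556 on the minus strand, with the proximal element in the opposite orientation. That of Dnajc3, an ER co-chaperone, lay at chr14:118937822-118937851 on the plus strand.

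Both strands were searched for 4 motifs, each a description of letters and not a tested site. A heat shock element of 2 units (GAANNTTC or TTCNNGAA) was in the windows of 14 of 51 members (27.5%), against 17.0% of 27025 genes. The motif of 3 units (GAANNTTCNNGAA or TTCNNGAANNTTC, which contains the shorter motif) was in 4 members (7.84%), Dnajb6, Hspd1, Hspe1 and Hsph1, against 0.662% of all genes. The ER stress response element (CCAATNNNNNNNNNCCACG or its complement) was in 3 members (5.88%), Hspa5, Hsp90b1 and Dnajc3, against 0.137% of all genes. The cAMP response element TGACGTCA was in 1 member (1.96%), Dnajc27, against 2.03% of all genes.

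Before the chaperones, the labels were checked against tissue markers. Aqp2, the aquaporin-2 gene of collecting duct principal cells, stood between 9501 and 30070 TPM in the 24 libraries. Under dDAVP it rose 3.00-fold on the log2(TPM + 1) scale (limma adjusted p = 0.00280, higher in 4 of 4 libraries). Markers of other nephron segments were uneven: the thick ascending limb gene Umod reached 2545 TPM in library 1 of WT unit 1, 1389 TPM in library 1 of WT unit 4 and 5253 TPM in dDAVP library 1, against a lowest value of 6.45 TPM. Slc34a1, a phosphate transporter gene of the proximal tubule, was between 27.2 and 426.5 TPM in saline libraries 1, 2 and 4 and between 44.2 and 216.7 TPM under dDAVP, but reached 2286 TPM in saline library 3. The immune marker Ptprc was between 2.89 and 9.22 TPM in the 24 libraries. Saline libraries 3 and 4 stood apart from the others, with median correlations of 0.863 and 0.839 to the other 7 libraries, against 0.913 to 0.934 in the dDAVP libraries.

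Together the 66 members made up between 0.549% and 0.766% of all TPM in a library, with a median of 0.660%. Levels in TPM can be compared between genes. The 3 highest genes gave 41.1% of the members' total. Hsp90ab1, the constitutive cytosolic Hsp90, was highest at a mean of 1313 TPM. Hspa8, the constitutive cytosolic Hsp70 (Hsc70), had 743.3 TPM and Hspa5 had 630.3 TPM. Next came Hsp90aa1, the inducible Hsp90, at 348.5 TPM, Hsp90b1 at 342.8 TPM, and Hspa9, the mitochondrial Hsp70 mortalin, at 286.9 TPM. The 10 highest were completed by Hspa1b (151.8 TPM), the ER J-protein gene Dnajb11 (144.4 TPM), Dnajc7 (136.6 TPM), whose product binds both Hsp70 and Hsp90, and Dnajc15 (126.6 TPM) of the mitochondrial inner membrane. In all, 15 members had a mean of 100 TPM or more, 40 had 10 to 100 TPM and 11 were lower.

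By role, the 2 cytosolic Hsp90 genes took 25.4% of the members' TPM, 12 ER chaperones 20.4%, 5 cytosolic Hsp70 genes 16.7% and 8 mitochondrial chaperones 14.5%. The 6 members grouped by symbol as small heat shock proteins, Hspb11 among them, took 1.55%. Of these, Hspb1 (Hsp27) had a mean of 33.4 TPM, and Hspb8, which works with BAG3 in selective autophagy, had 10.9 TPM. That share leaves out Cryab, a small heat shock protein gene that the naming rule does not take. Cryab stood at a mean of 499.0 TPM in WT and 544.6 TPM in MT. Of the J-proteins of cytosol and nucleus, Dnaja2 was highest at 118.8 TPM. Dnaja1, at 83.8 TPM, and Dnajb1, the inducible Hsp40, at 71.9 TPM, followed after Dnajb2 at 92.2 TPM. In the plot of levels by role, most members keep within a narrow range over the libraries, while lines of Hspa1a, Hspa1b and Dnajb1 are long: 7 members had a highest library at least 4 times the lowest.

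**Figure D1:**
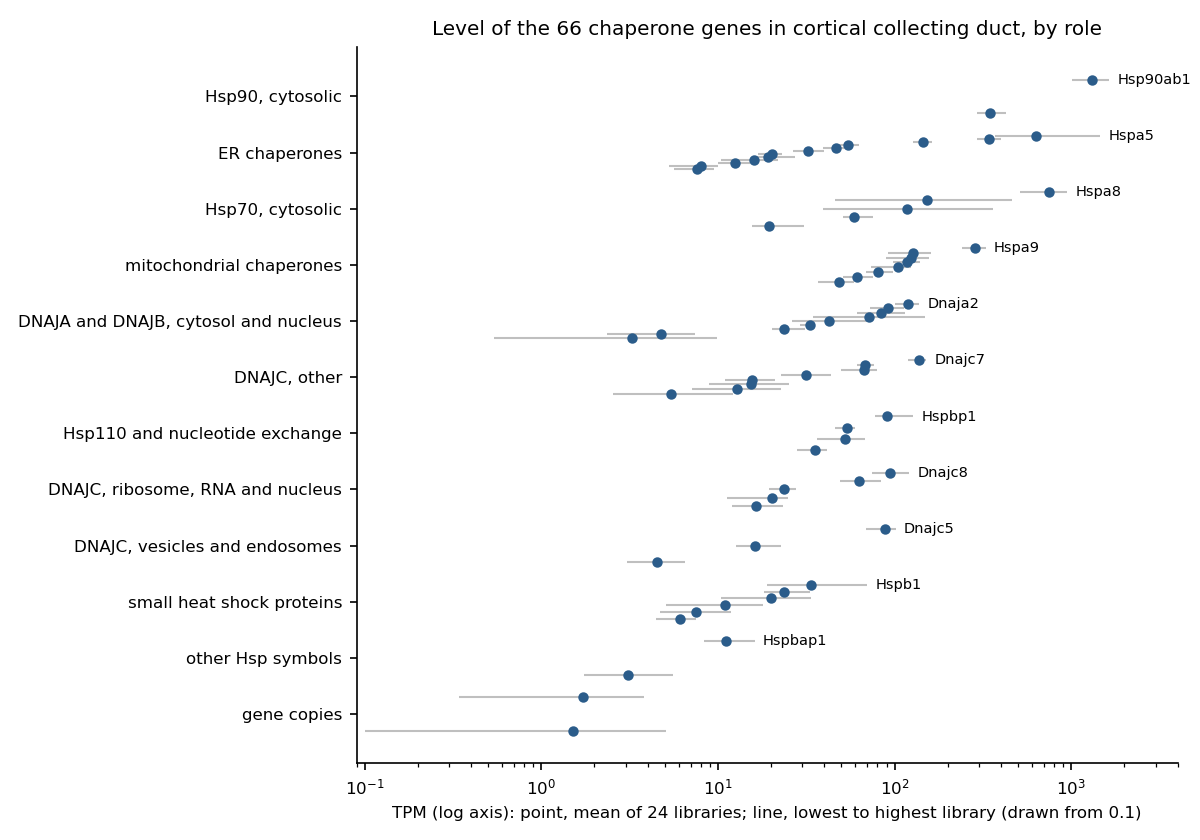
Mean TPM of each of the 66 chaperone genes over 24 libraries (points, log axis) with the lowest and highest library (lines), grouped by role, with the highest gene of each role named except for the gene copies. Hsp90ab1, at a mean of 1313 TPM, Hspa8 and Hspa5 lie farthest right.

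The dDAVP comparison could address 44 of the members, since its table keeps a gene only if all 8 libraries have over 10 TPM. The other 22 members have no value under infusion here. They were not all low in the 24 libraries: Dnajc7 and Dnajb4, with means of 136.6 and 42.3 TPM there, are among them. Why these genes are not listed was not tested. None of the 44 passed limma's test at an adjusted p of 0.05, where 0.556% of the 5035 genes tested were called higher and 0.139% lower. At an unadjusted p under 0.05, 2 members were higher and 4 lower, against 4.17% and 6.81% of all genes. The authors' deposited table, made with DESeq, called 1 member, Hspa1a, lower and none higher, where it called 0.318% of all genes lower and 0.715% higher. The log2 fold change was below 0 in 32 of 44 members with a median of -0.22, and in 2839 of 5035 genes with a median of -0.06. With 1 of the 8 libraries left out, the members' median ran from -0.25 to -0.11, the value nearest 0 coming without saline library 4.

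Of the cytosolic Hsp70 genes, Hspa1a had the lowest fold change among the 44 members. Its TPM was 49.8, 113.3, 53.5 and 129.4 in saline libraries 1 to 4 and 27.3, 39.7, 39.4 and 21.4 in dDAVP libraries 1 to 4. All 4 dDAVP libraries lay below the lowest saline library, and saline libraries 2 and 4 were well above saline libraries 1 and 3. The log2 fold change was -1.33 ± 0.37 (SE, n = 4 and 4), with a limma adjusted p of 0.192. The authors' deposited table gave -1.35 with an adjusted p of 0.0291 for the same gene. Groups that did not overlap were found for 3.56% of all genes in the higher and 5.02% in the lower direction, and for 2 and 3 of the 44 members.

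Hspa1b did not separate the groups. It stood at 50.1, 147.9, 48.3 and 223.6 TPM in saline and at 65.5, 85.7, 45.8 and 62.4 TPM under dDAVP, and dDAVP library 2 lay above saline libraries 1 and 3. Its log2 fold change was -0.57 ± 0.46 (limma adjusted p = 0.696). Reads of 2 genes this alike can be divided between them only by estimate, so the split of the pair is uncertain. The sum of both was 99.9 to 353.0 TPM in saline and 83.8 to 125.5 TPM under dDAVP, so the summed values overlapped. Hspa1a took 36.7% to 52.5% of that sum in saline and 25.5% to 46.2% under dDAVP, against 36.3% to 49.2% in WT and 37.8% to 47.5% in MT libraries.

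Immediate early genes, which are transcribed within minutes of a stimulus or of tissue handling, mostly had lower values under dDAVP too. Of 19 on the list, 12 were listed in the dDAVP table. Their summed level was 3612 to 14018 TPM in saline and 917.0 to 10310 TPM under dDAVP, and 11 of 12 had fold changes below 0, with a median of -1.55. Of these, 7 had an unadjusted p under 0.05 and none passed the limma adjustment. Jun was at 248.5, 547.3, 167.2 and 513.4 TPM in saline and at 45.0, 233.0, 42.9 and 36.5 TPM under dDAVP, with dDAVP library 2 above saline library 3. The part of these genes in the Hspa1a difference was not tested.

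Markers of cell types also had other levels under dDAVP. The summed level of 10 intercalated cell markers was 6519 to 8197 TPM in saline and 3933 to 5371 TPM under dDAVP. Of these 10, 9 had fold changes below 0 with a median of -0.56, and none passed the limma adjustment. Slc4a1 (-0.06) and Aqp6 (0.16) had log2 fold changes near 0. Of the 9 principal cell markers, 7 had log2 fold changes above 0 and 2 below, with a median of 0.61. Aqp2 (mean 20171 TPM in saline and 60871 TPM under dDAVP) and Aqp3 (3875 and 7732 TPM) rose and made up most of the summed level of 31126 to 34658 TPM and 68997 to 92417 TPM. The other 7 did not pass. Aqp4 (1.57 ± 0.57), Avpr2 (0.61 ± 0.17) and Fxyd4 (0.62 ± 0.20) had log2 fold changes above 0, and Avpr2 was higher in all 4 dDAVP libraries. Scnn1b, an epithelial sodium channel subunit, was lower in all 4 dDAVP libraries (-0.51 ± 0.15, limma adjusted p = 0.221). Scnn1g (0.02), Hsd11b2 (-0.002) and Gata3 (0.09) had log2 fold changes near 0. Of 8 proximal tubule markers 3 were listed, all with fold changes below 0 (median -0.63) and none passing. Their summed level was 229.2 to 6632 TPM in saline, highest in saline library 3, and 315.6 to 1843 TPM under dDAVP. Of 5 endothelial markers 2 were listed, at a summed 110.8 to 201.7 TPM in saline and 161.1 to 423.8 TPM under dDAVP, and none of 6 immune markers was listed. No listed marker could be at 0, since a gene was listed only with over 10 TPM in all 8 libraries. In bulk tissue, fewer cells of a type and less RNA per cell cannot be told apart, and the part of composition in the members' values was not tested.

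Hspa8 was at 848.7, 711.4, 1155 and 519.7 TPM in saline and at 696.0, 858.9, 599.4 and 560.5 TPM under dDAVP. The groups overlapped throughout, with saline libraries holding both the highest and the lowest value. Its log2 fold change was -0.21 ± 0.23 (limma adjusted p = 0.781), and without saline library 3, its highest, it was -0.02. Hspa14, whose product sits at the ribosome, and Hspa2, the testis-enriched Hsp70, had fold changes of -0.07 and -0.30. All 5 cytosolic Hsp70 genes thus had values below 0, with a median of -0.30, and none passed.

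The cytosolic Hsp90 genes had similar values. Hsp90ab1 stood at 956.0, 850.6, 1141 and 1024 TPM in saline and at 679.9, 911.8, 722.8 and 813.7 TPM under dDAVP. Only dDAVP library 2 reached into the saline range, above saline library 2. The log2 fold change was -0.35 ± 0.15, with an unadjusted p of 0.0412 and a limma adjusted p of 0.433. For Hsp90aa1 it was -0.27 ± 0.22. The Hsp110 gene Hsph1, the exchange factor of stressed cells, had -0.33 ± 0.29, and its relative Hspa4 had -0.36 ± 0.27. Neither passed.

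Among J-proteins of cytosol and nucleus, 4 of the 5 listed were below 0. Dnajb1 was at 49.6, 158.8, 59.5 and 75.4 TPM in saline and at 46.8, 96.9, 43.0 and 62.5 TPM under dDAVP. Library 2 was the highest of each group, and the groups overlapped. Its fold change on the log2 scale was -0.38 ± 0.38. Dnaja1 had -0.10 and Dnajb6, which suppresses aggregation of polyglutamine proteins, had -0.04. Hspb1 was the only member listed among those grouped as small heat shock proteins. It stood at 22.4, 45.3, 13.9 and 11.7 TPM in saline and 26.9, 31.3, 37.0 and 26.5 TPM under dDAVP. The wider saline range enclosed the dDAVP range (log2 fold change 0.55 ± 0.38, limma adjusted p = 0.645). Cryab, no member by name, was listed too, at means of 518.6 TPM in saline and 627.7 TPM under dDAVP. Its log2 fold change was 0.32 ± 0.22, and it did not pass.

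Mitochondrial chaperones held both other members whose dDAVP libraries were all below the saline libraries. Dnaja3 (Tid1), the J-protein of mitochondrial Hsp70, was at 138.2, 130.7, 178.2 and 205.1 TPM in saline and at 99.3, 102.4, 112.2 and 78.8 TPM under dDAVP. Its log2 fold change was -0.71 ± 0.21 (limma adjusted p = 0.221). The authors' deposited table gave it an adjusted p of 0.0744.

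Hspd1 (Hsp60) was at 179.6, 153.8, 164.8 and 156.0 TPM in saline and at 129.0, 128.7, 81.6 and 87.6 TPM under dDAVP. The 4 saline libraries lay close together, and dDAVP libraries 3 and 4 were the lowest. For Hspd1 the log2 fold change was -0.64 ± 0.21 (limma adjusted p = 0.263). Hspe1 (Hsp10), which shares the promoter interval with Hspd1, was at 199.7, 193.4, 192.7 and 173.1 TPM in saline and at 140.9, 146.5, 120.7 and 201.6 TPM under dDAVP. In 3 dDAVP libraries it lay below saline, and dDAVP library 4 was the highest of all 8. The ratio of Hspe1 to Hspd1 was 1.11, 1.26, 1.17 and 1.11 in saline and 1.09, 1.14, 1.48 and 2.30 under dDAVP, so that only dDAVP libraries 3 and 4 lay above the saline range.

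Hspa9 had a log2 fold change of -0.33 ± 0.19. Summed over the 8 mitochondrial chaperone genes the level was 1129 to 1346 TPM in saline and 973.3 to 1100 TPM under dDAVP, 6 of 8 fold changes being below 0 with a median of -0.28. The 5 mitochondrially encoded transcripts listed stood at a summed 15375 to 17593 TPM in saline and 11097 to 17337 TPM under dDAVP, all 5 fold changes being below 0. Trap1, the mitochondrial Hsp90, is no member by name, and its fold change was -0.48 ± 0.19 (limma adjusted p = 0.382).

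ER chaperones were the only role with 2 or more listed members whose median fold change was above 0, at 0.36, with 6 of 9 members positive. That the ER set differed from the other roles was not tested. Dnajc10 (ERdj5), a J-protein with reductase activity, was at 35.3, 35.3, 15.7 and 15.3 TPM in saline and 44.2, 58.7, 54.6 and 30.9 TPM under dDAVP. Saline libraries 3 and 4 were lowest, and dDAVP library 4 lay among the saline values. Its log2 fold change was 0.93 ± 0.36 (limma adjusted p = 0.371). Dnajc1, a J-protein of the ER membrane, separated the groups. It stood at 25.1, 29.1, 25.3 and 24.7 TPM in saline and 31.4, 42.9, 42.0 and 33.0 TPM under dDAVP (0.49 ± 0.24, limma adjusted p = 0.481).

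Hspa5 was at 605.8, 717.4, 836.2 and 468.5 TPM in saline and at 720.5, 1476, 676.7 and 634.3 TPM under dDAVP. Library 2 under dDAVP stood far above the other 7, which overlapped. The log2 fold change of 0.36 ± 0.27 came down to 0.07 without that library. Hsp90b1, at 144.8 to 315.4 TPM in saline and 262.6 to 451.6 TPM under dDAVP, and Dnajb11, at 86.8 to 153.0 and 132.3 to 232.1 TPM, were also highest in dDAVP library 2. In all, 6 of the 9 ER members had their highest value there, whereas 5.16% of all genes did. Of the 3 with an ER stress response element in the window, Hspa5 and Dnajc3 were highest in that library too, at 1476 and 58.1 TPM, as was Hsp90b1.

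Outside these roles, Dnajc9, a histone co-chaperone, separated the groups upward. It was at 63.3, 61.1, 29.4 and 50.1 TPM in saline and at 70.2, 88.3, 118.4 and 84.8 TPM under dDAVP. Dnajc9 thus had a log2 fold change of 0.85 ± 0.29, with a limma adjusted p of 0.309. The other 4 J-proteins of ribosome, RNA and nucleus were below 0. The plot of fold changes under dDAVP shows these members by role.

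**Figure D2:**
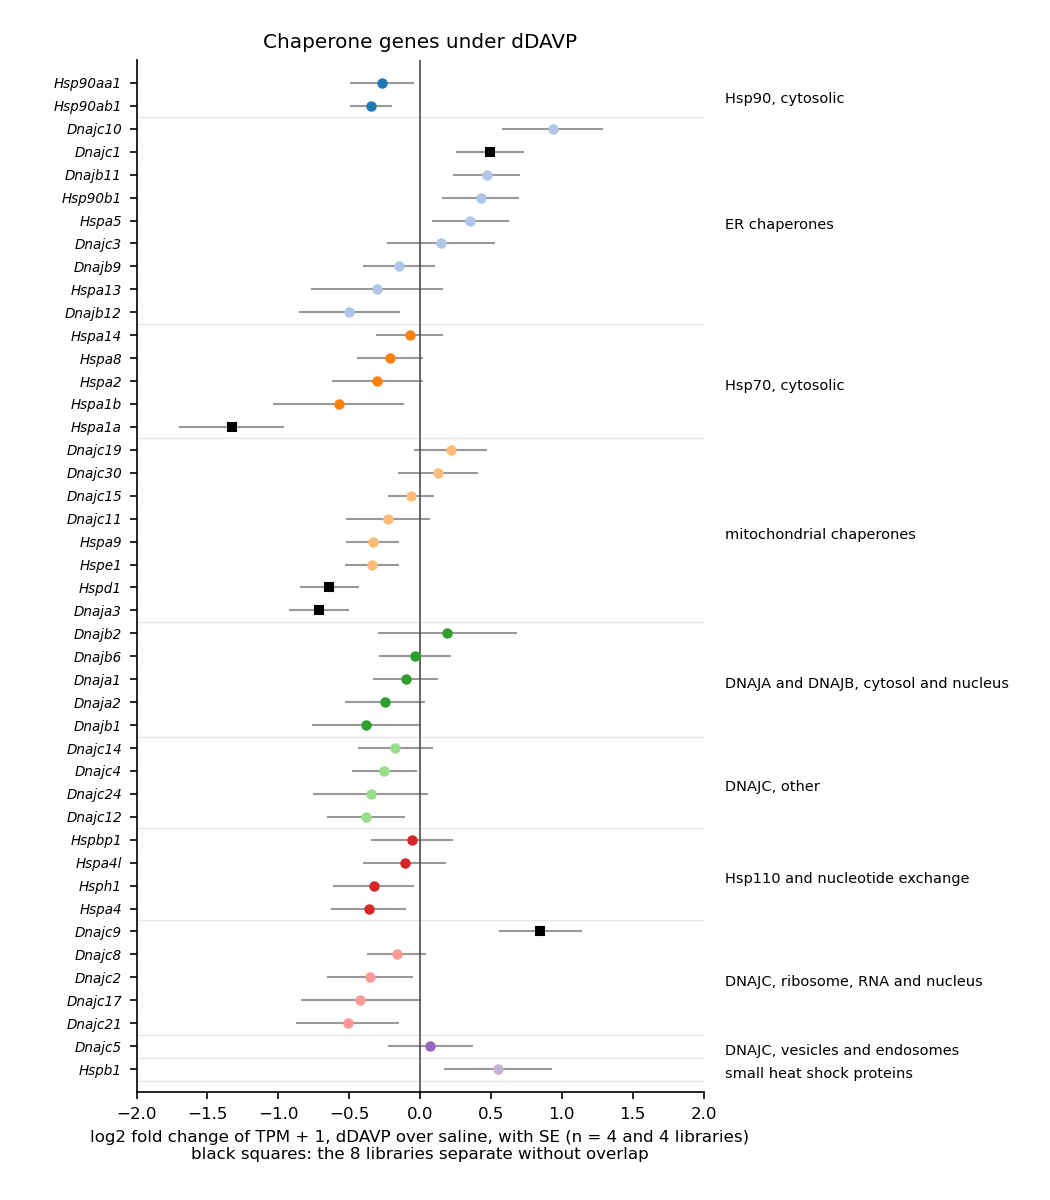
Log2 fold change of TPM + 1, dDAVP over saline, for the 44 listed chaperone genes, with the standard error from limma (4 and 4 libraries) and grouped by role. Black squares are the 5 members whose groups do not overlap; Hspa1a at -1.33 lies farthest left and Dnajc10 at 0.93 farthest right.

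Beyond the named families, no other gene of the chaperone lists passed the test. Of 24 heat shock factors and Hsp90 co-chaperones, 18 were listed, none passed and 14 were below 0, with a median of -0.10. Hsf1, the gene of the factor that binds heat shock elements, had -0.10 ± 0.26. Of 14 subunits of the TRiC and prefoldin complexes, which fold actin and tubulin, all were listed, none passed and 10 were above 0, with a median of 0.06. Of 19 other known heat shock targets, 13 were listed and 11 were below 0 with a median of -0.21, none passing. Bag2, a nucleotide exchange factor of Hsp70, stood lower in all 4 dDAVP libraries (-0.69 ± 0.23, limma adjusted p = 0.263).

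The β-catenin table allowed all 66 members to be compared, with the mean of 3 libraries as the value of a unit. No member passed the adjusted threshold in MT against WT, and limma called 0 of 15013 genes in either direction (0%). At an unadjusted p under 0.05, 2 members were higher and 1 lower, against 2.63% and 1.92% of all genes. The median log2 fold change of the members was 0.00, with 34 above and 32 below 0, and that of all genes was 0.01. Units did not overlap for 2 members upward and none downward, against 1.86% and 1.17% of all genes. No table of the authors' own was used for this comparison.

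Dnajc10 had the smallest p. Its unit means were 51.3, 48.0, 52.9 and 50.6 TPM in WT and 59.2, 55.1, 57.8 and 59.4 TPM in MT, all 4 MT units lying above WT. The log2 fold change was 0.19 ± 0.05 (unadjusted p = 0.00460, limma adjusted p = 0.969). Hspb11, a ciliary transport protein despite its name, had 21.5, 22.4, 19.6 and 22.9 TPM in WT and 25.6, 24.6, 27.7 and 23.7 TPM in MT. Hspb11 had a log2 fold change of 0.23 ± 0.07, with the same adjusted p. The member of smallest p among the lower ones was Dnajc28, at 16.6 ± 0.53 TPM in WT and 14.7 ± 1.23 TPM in MT (SD over 4 units), whose units overlapped.

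The others of the 10 smallest p were Dnajc15 (0.15), Hspbap1 (-0.21), Dnajb12 (-0.19), Dnajc12 (-0.24), Dnajb14 (0.17), Dnajc1 (-0.13) and Hspa5 (-0.40), all on the log2 scale. Each had a limma adjusted p of 0.969 and overlapping units. Hspa5 had the lowest fold change of all 66, and its WT mean leaned on library 1 of WT unit 1, at 1457 TPM against 864.7 and 696.5 TPM in the other libraries of that unit. That library also held the 2545 TPM of Umod, and the part of other segments' cells in its Hspa5 level was not tested.

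The inducible Hsp70 pair differed widely between units of the same genotype. Hspa1a was at 171.9, 146.3 and 131.3 TPM in the libraries of WT unit 1, at 66.8, 65.2 and 57.1 TPM in WT unit 2, at 58.0, 60.1 and 80.0 TPM in WT unit 3 and at 288.7, 207.8 and 214.1 TPM in WT unit 4. It was at 88.6, 73.8 and 361.0 TPM in MT unit 1, at 136.8, 107.7 and 134.3 TPM in MT unit 2, at 93.3, 86.4 and 75.7 TPM in MT unit 3 and at 49.3, 41.1 and 39.2 TPM in MT unit 4. WT unit 4 was high, MT unit 4 low, and the WT and MT units overlapped. The log2 fold change of MT over WT was -0.21 ± 0.53 (limma adjusted p = 0.999), and it turned to 0.15 without WT unit 4 and to 0.16 without MT unit 4.

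Hspa1b was likewise high in WT unit 4 and low in MT unit 4. Its unit means were 192.7, 96.2, 85.8 and 270.0 TPM in WT and 223.4, 162.5, 131.6 and 52.0 TPM in MT. Dnajb1 was at 82.8, 46.3, 48.7 and 123.5 TPM in WT and at 74.2, 84.3, 77.9 and 37.3 TPM in MT. Hsph1 unit means were 54.3, 49.5, 41.1 and 66.0 TPM in WT and 43.5, 60.3, 65.9 and 38.0 TPM in MT. In all 4 genes WT unit 4 was the highest of the WT units and MT unit 4 the lowest of the MT units. For these genes the fold change of MT over WT had an absolute value no larger than that of Hspa1a, from -0.20 for Hspa1b to -0.04 for Hsph1, with SEs of 0.50 and 0.20.

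Hspa8, the constitutive gene, was steadier within units and still differed between them. Its unit means were 865.1, 652.5, 701.1 and 921.2 TPM in WT and 604.9, 802.6, 837.0 and 561.9 TPM in MT, with a log2 fold change of -0.17 ± 0.16 (limma adjusted p = 0.979). In the 3 libraries of MT unit 4 it read 565.5, 566.2 and 554.0 TPM. Counted over all 66 members, WT unit 4 held the highest unit mean for 19 members (28.8%), against 13.9% of all genes, and MT unit 4 the lowest for 17 (25.8%), against 17.1% of all genes.

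Library 3 of MT unit 1 stood apart from the other libraries of its unit. There Hspa1b was at 464.3 TPM against 108.3 and 97.7 TPM, Dnajb1 at 128.0 TPM against 46.5 and 48.0 TPM, and Hspb1 at 47.4 TPM against 23.1 and 20.9 TPM. Hsph1 did not share this, with 45.1 TPM against 41.8 and 43.6 TPM. On the TPM + 1 scale, 6 of 66 members were at least 2 times higher in that library than the mean of the other libraries of the unit (9.09%), against 2.16% of all genes. Fos was 2109 TPM there against 1085 and 839.2 TPM. Leaving that library out moved the MT over WT fold change of Hspa1a from -0.21 to -0.49 (limma adjusted p = 0.998) and called no member.

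**Figure D3:**
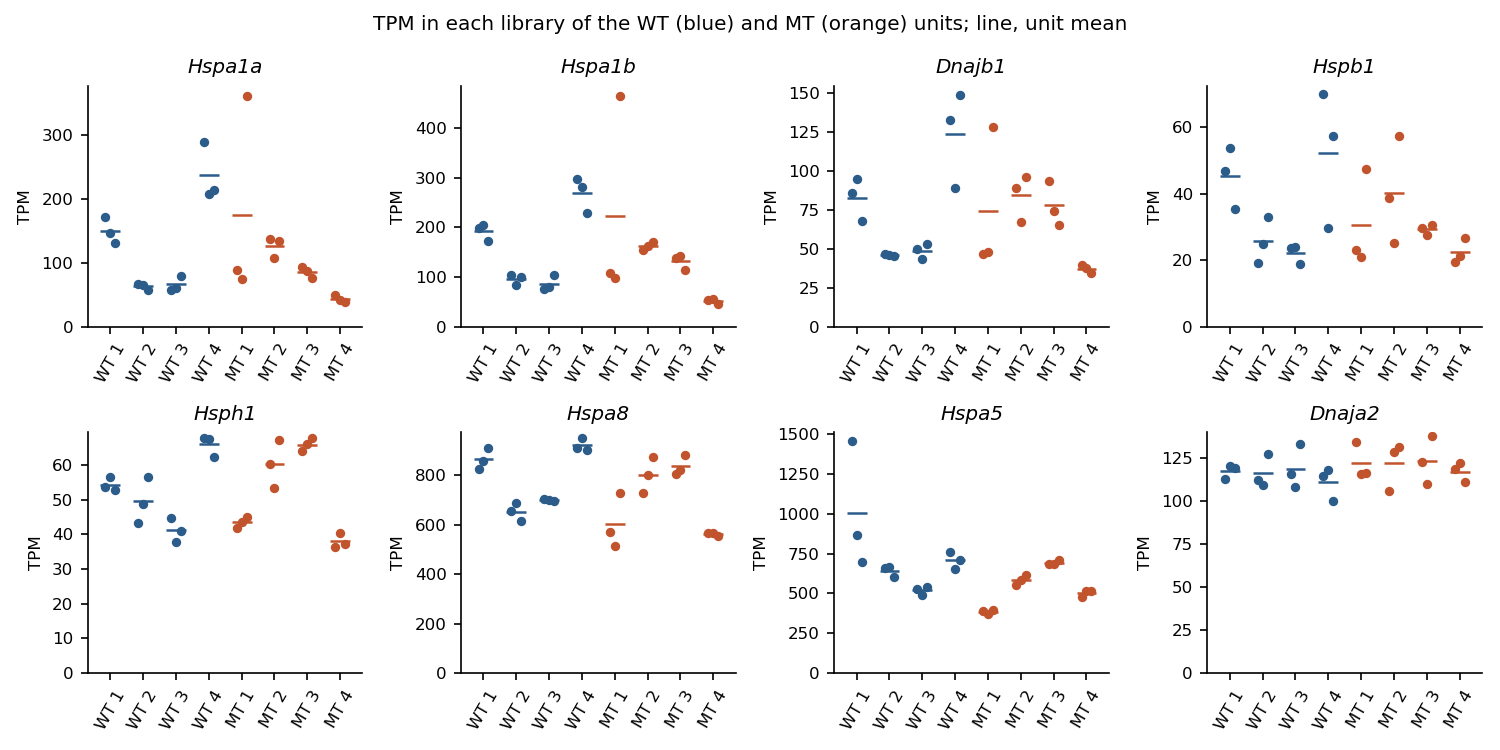
TPM in each of the 24 libraries (points) and unit means (lines) for 8 chaperone genes, with WT units in blue and MT units in orange; every axis starts at 0. Hspa1a, Hspa1b and Dnajb1 are high in WT unit 4 and in library 3 of MT unit 1 (361.0 TPM for Hspa1a) and low in MT unit 4, whereas Dnaja2 is level across units.

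The spread was measured on log2(TPM + 1) as the SD among the 3 libraries of a unit and as the SD among unit means within a genotype. Hspa1a had 0.48 within units and 0.89 between them, above 98.0% and 99.1% of the 6715 genes with a mean of 20 TPM or more. Hspa1b had 0.47 and 0.84, Dnajb1 0.36 and 0.60, and Hspb1 0.42 and 0.48. Dnajb4, another inducible J-protein gene, had 0.23 and 0.42, and Hspa5 had 0.21 and 0.38. Hsph1 combined a low SD within units, 0.11, with a high one between units, 0.33, and Hspa8 did so with 0.11 and 0.26.

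At the other end, the SD between units was 0.04 for Dnaja2, Dnajc7 and Dnajb6 and 0.05 for Hspa4. Dnaja2 unit means were 117.7, 116.6, 119.1 and 111.1 TPM in WT and 122.5, 122.2, 123.7 and 117.4 TPM in MT. Over the 43 members with a mean of 20 TPM or more, the median SD was 0.13 within and 0.12 between units, against 0.13 and 0.11 for all such genes. The SD between units exceeded that within units for 51.2% of these members and for 36.7% of all such genes. The largest SDs within units also included members of low level, among them Dnajc19-ps, Dnajb3, Dnajc22, Dnajc25 and Hspb2, where the SD ran from 0.31 to 0.66.

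**Figure D4:**
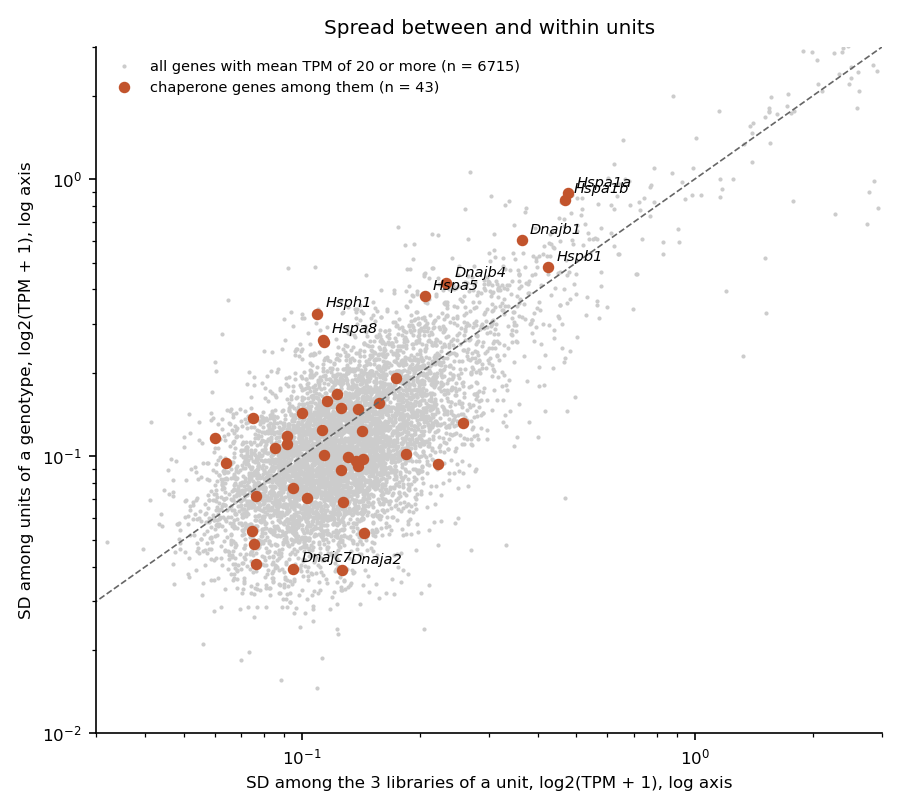
SD among the 3 libraries of a unit (x) against SD among units of a genotype (y), both on log2(TPM + 1) with log axes limited at 3, for 6715 genes (grey) and the 43 chaperone genes with a mean of 20 TPM or more (orange); the dashed line marks equal SDs. Hspa1a, at 0.48 and 0.89, Hspa1b and Dnajb1 lie at the upper right, and Hsph1 and Hspa8 lie above the line at low SD within units.

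As a description, the median SD between units was 0.23 in the 14 members with a heat shock element of 2 units in the promoter window and 0.12 in the 37 without. Among the 14, Hspa1a and Hspa1b counted separately, as did Hspd1 and Hspe1, although each pair shares promoter sequence. The groups were not matched for level, and a link between element and spread was not tested. Of the 10 members with the largest SD between units, 8 had a sequence and 5 of these held the element. Dnajb6 held the longer element of 3 units and was among the steadiest members. Hspd1 and Hspe1, which share the long element printed above, had unit means of 88.0 to 116.9 TPM and 106.6 to 136.5 TPM.

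The genes whose levels followed Hspa1a most closely over the 24 libraries were ranked by Pearson's r on log2(TPM + 1), over n = 24 libraries that share units in sets of 3. Hspa1b was closest with r = 0.98 and Dnajb1 next with 0.92. The other 8 of the 10 closest were no members: Jun (0.90), Ppp1r15a (0.88), Hbegf (0.85), Mcl1 (0.84), Klf6 (0.84), Fosb (0.84), Jund (0.83) and Ier3 (0.83). The order below Hspa1b changed without library 3 of MT unit 1. Hspa1b stayed first (0.97), Hbegf and Mcl1 (both 0.93) came next and Dnajb1 (0.92) ranked 5. Of the 10 closest, 6 remained among the 10 closest, while Jund, Klf6, Fosb and Ier3 moved to ranks 15, 17, 20 and 42. Among members, Hspb1 (0.78), Dnajb4 (0.76), Hspa8 (0.69) and Hsph1 (0.57) were less close.

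Immediate early genes also varied among libraries. Jun, Klf6, Fosb, Jund and Ier3, named above among the 10 closest to Hspa1a, belong to this list. The summed level of the list did not peak in the same library as Hspa1a. It was highest in library 1 of WT unit 1, at 15571 TPM, where Hspa1a was 171.9 TPM. In library 3 of MT unit 1, where Hspa1a was highest at 361.0 TPM, the summed level was 8932 TPM. Over the 18 measured, of 19 on the list, it was 2256 to 15571 TPM in WT and 1829 to 8932 TPM in MT libraries, with none at 0. In MT against WT, 16 of 17 tested had fold changes below 0, with a median of -0.34, and none passed. Their part in the spread of Hspa1a was not tested. Hspa8 had other neighbours: Tbpl1 (0.91), Dnaja1 (0.91), Sox4 (0.91) and Hsp90ab1 (0.89) were among the 5 closest, and Hsp90ab1 ranked 8 without library 3 of MT unit 1. Hsf1 stayed between 37.2 and 51.1 TPM and Hsf2 between 5.19 and 8.17 TPM in the 24 libraries.

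Chromatin at the members' promoters was read from the authors' deposited ATAC-seq table, which gives group means of 3 saline and 3 dDAVP libraries for 270806 peaks on mm10, with the authors' fold changes and adjusted p-values. No value per library was used, so there is no SD here. The table assigned 67 promoter peaks to 47 members. Of these, 32 were called lower under dDAVP and none higher, against 25.8% and 0.167% of 18508 promoter peaks of all genes. When the strongest promoter peak of each gene was taken, 29 of 47 members were lower and none higher, against 35.1% and 0.224% of genes.

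The share called depends on signal. With strongest promoter peaks of a mean log2 signal of 7 or more, 26 of 37 members were lower (70.3%), against 66% of 5553 genes. The median log2 fold change was -0.49 for the 47 members and -0.48 for the 12507 genes, so the members' shift was close to that of promoters in general. All 47 values were below 0, as were 10863 of 12507 genes.

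The promoter peak of Dnajb1, at chr8:83607629-83608978, had the highest signal of the members, a log2 mean of 10.1, and the authors' log2 fold change was -0.37 (adjusted p = 0.000460). Hspa8 (9.78) and Hspa2 (9.75) followed, at -0.40 and -0.34. The Hspa1a peak, at chr17:34971038-34972752, spans the printed element and had a signal of 8.51 and a fold change of -0.48 (authors' adjusted p = 0.0371). The Hspa1b peak, at chr17:34959838-34960152, had a signal of 6.73 and a fold change of -0.43 (authors' adjusted p = 0.162). The peak between Hspd1 and Hspe1, at chr1:55087267-55088711, was given to Hspd1 with a signal of 9.39 and a fold change of -0.68 (authors' adjusted p = 1.13e-05).

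The strongest promoter peaks of lowest signal were those of Dnajc5 (3.84), Dnajc30 (2.69) and Dnajc13 (2.14), none of them called. Dnajc5 nevertheless had a mean of 87.9 TPM and Dnajc30, a mitochondrial J-protein, 48.1 TPM. The largest fold among called strongest peaks was -1.24 at Dnajc8, a splicing-associated J-protein, and the smallest in size was that of Hsph1, at -0.34. The promoter peak of Dnajc10, whose RNA values were mostly above saline, was called lower at -0.56, and no promoter peak was assigned to Dnajc9.

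**Figure D5:**
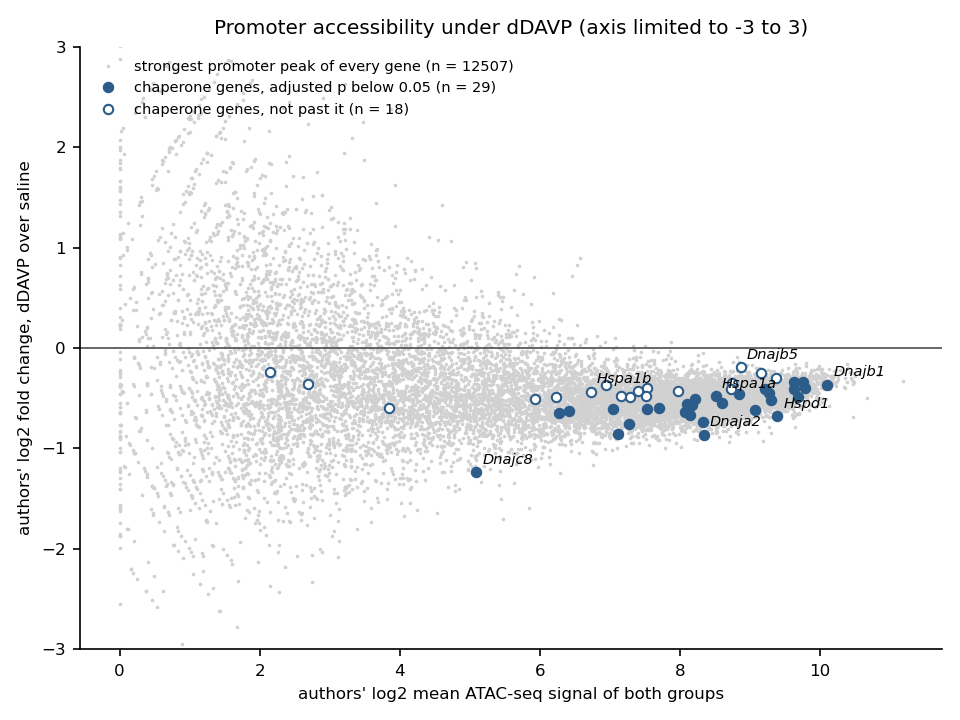
The authors' log2 mean ATAC-seq signal (x) and log2 fold change of dDAVP over saline (y) for the strongest promoter peak of 12507 genes (grey) and 47 chaperone genes (blue, filled where the authors' adjusted p was below 0.05); the y axis is limited to -3 to 3. All 47 chaperone points lie below 0 within the band of other promoters of like signal.

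Away from promoters, the table gave 459 further peaks to members by the nearest gene. Of these, 28 were called lower (6.1%) and 7 higher (1.53%), against 4.52% and 0.895% of all 252298 peaks outside promoters. With the promoter peaks, 60 of 526 were called lower (11.4%) and 7 higher (1.33%), against 5.98% and 0.846% of all 270806 peaks. None of these shares was matched for signal. The 7 higher peaks were 5 intergenic peaks and 2 in introns. The intron of Dnajc10 held the peak of largest fold, at chr2:80338426-80338564, where the log2 signal was 0 in saline, the table's floor, and 2.72 under dDAVP (authors' adjusted p = 0.0246). Of the 7, 3 were assigned to Dnajb9, the gene of an ER J-protein at chr12:44205897-44210068. The strongest of these lay far from the gene, at chr12:43787535-43788501, with a log2 fold change of 1.25. The closest to the gene was at chr12:44171561-44171822. The others were 1 near Dnajb1 and 2 given to Dnaja2, with fold changes of 1.99, 1.63 and 1.44.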

How the data were processed

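The 66 genes were chosen by symbol and level, and the members, lists and tests were chosen with earlier results of these data known. Both RNA-seq tables hold TPM that the authors computed from SMARTer V4 cDNA tagmented with Nextera XT, per the labels' protocols. STAR, RSEM and mm10 are named in the submitters' processing notes, without versions. TPM keeps no depth, so the depth is unknown and no counting interval is given. Per the file headers, the dDAVP table lists 5035 genes with a lowest TPM above 10 and holds the authors' log2 fold change and adjusted p-value from DESeq. The ATAC-seq table holds the deposited log2 signal of each group, log2 fold change and adjusted p-value; cutadapt 3.4, Bowtie2, MACS2 and DiffBind are named in the submitters' processing notes, and settings are not given in the sources used here. Peaks were assigned to genes and promoters by the deposited annotation.

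The 2 RNA-seq tables were normalised separately and were tested separately. Each comparison was fitted with limma 3.58.1 (eBayes with trend, R 4.3.3) on log2(TPM + 1), leaving out genes with a mean under 1 TPM. Tests were two-sided, and p-values were adjusted by Benjamini and Hochberg's method over all genes, with a threshold of 0.05. A fold change is on that scale and understates low genes. Replicates were 4 and 4 libraries, or 4 and 4 units as means of 3 libraries. Data were also simulated with independent normal noise of each gene's spread, and 200 genes were changed. On these data the dDAVP fit recovered 46% of 100 genes changed by a log2 of 1 and 91% of those changed by 2. It made 5 false calls among the unchanged of 5035 genes. The MT against WT fit recovered 92% and 97%, with 6 false calls among the unchanged of 15013 genes. The changed genes had mean levels above 10 TPM on the log scale, so recovery at lower levels was not measured.

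The rule for named genes took members past the threshold, the 10 smallest p of each comparison, the 10 highest levels, the 10 largest spreads within units, the promoter extremes, 16 fixed chaperone genes, Hsf1 and Hsf2, leading genes of the other lists and the 10 genes most like Hspa1a. Alternatives were other pseudocounts, filters, scalings, no trend, a replicate block, leaving out each replicate, and for the units medians, a random block and leaving out library 3 of MT unit 1. Some genes of the lists and 1 member are not reported here by name.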

Additional observations from a re-analysis of the deposited data

Results flagged for a closer look

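In 7 of 102 groups of 4 values tested for the named members, 1 value lay far from the other 3, with a gap, as a share of the group's range, above Dixon's 95% critical value. Chance alone gives about 1 such group in 20. In dDAVP library 2, Hspa5 stood at 1476 TPM against 634.3 to 720.5 TPM (gap 0.849 of the range). In saline library 2, Dnajc1 stood at 29.1 TPM against 24.7 to 25.3 TPM (0.865). Saline library 3 was flagged for 2 genes: Dnaja1 was low, at 61.9 TPM against 99.3 to 108.3 TPM (0.844), and Dnajc12 was high, at 70.7 TPM against 48.0 to 49.3 TPM (0.933). Among unit means, Dnajb1 in MT unit 4 was 37.3 TPM against 74.2 to 84.3 TPM (0.842). Hspd1 in WT unit 2 was 88.0 TPM against 105.7 to 107.4 TPM (0.921), and Dnajb6 in WT unit 1 was 34.3 TPM against 31.6 to 32.0 TPM (0.852). These gaps come from 4 values each, and what set these samples apart was not tested.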

How the results depend on the processing

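No alternative called a member in either RNA-seq comparison, so 0 of 44 and 0 of 66 held under each. Correlations did not settle whether the replicate numbers pair the samples of the dDAVP table. Same-numbered samples there correlated at 0.19, 0.23, 0.09 and -0.15, against -0.23 to 0.19 for differently numbered ones. In the β-catenin table same-numbered units correlated between -0.03 and 0.04, against -0.25 to 0.30 for differently numbered ones. With the replicate block, limma called 0 members in both comparisons, Hspa1a under dDAVP kept -1.33 with an adjusted p of 0.327, and calls over all genes went from 28 higher and 7 lower to 7 and 1. The Hspa1a fold change under dDAVP ran from -1.55 to -1.09 over all alternatives, with adjusted p from 0.124 to 0.452. Counts over all genes under dDAVP moved with the fit: 15 higher and 3 lower without the trend, and 6 to 40 higher and 1 to 14 lower with 1 library left out. At an adjusted p of 0.01, 15 in place of 32 member promoter peaks were lower (22.4%, against 12.2% of all promoter peaks). These shares were not matched for signal, whose median was 7.27 for member promoter peaks and 4.62 for all promoter peaks.

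Signs turned only for values not past the threshold. Dnajb6 under dDAVP was 0.02 with either scaling (median of ratios 0.0220, quantile 0.0215). With 1 library left out, Dnajb6 ran from -0.16 to 0.0582 and Dnajc3 from -0.0537 to 0.46 under dDAVP. In MT against WT, with 1 unit left out, Hspa1a ran from -0.50 to 0.16, Hspa1b from -0.47 to 0.22, Dnajb1 from -0.28 to 0.19, Hsph1 from -0.16 to 0.0983, Hspb1 from -0.38 to 0.0209, Hsp90aa1 from -0.0956 to 0.0177 and Hspd1 from -0.0144 to 0.13. The cause of these shifts was not tested. Unknown depth limits what can be said of members near the minimum level, and genes under 10 TPM in any dDAVP-table library could not be compared.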
